A study of Mus musculus with 24 samples.

Results

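The DNA replication genes are 44 mouse genes whose products copy the genome in S phase, listed by name for their function and not for how they moved. Their probes were found by the gene symbol in the array's annotation. Of the 44 members 41 had a probe, 68 probes in all, and *Gins1*, *Gins2* and *Rfc3* had none. A gene entered the tests where its probe was called present on 3 or more of an experiment's 12 arrays, and the brightest such probe stood for it. The same 36 members were tested in each experiment, among 8569 genes in the IKKβ experiment and 9123 genes in the p38 experiment. *Orc1*, *Pola1*, *Pole2*, *Prim1* and *Slbp* had a probe that was detected on 0 arrays of either experiment, so nothing further is said of them.

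The cells are bone marrow-derived macrophages (BMDMs) by their protocols, grown for 7 days in L929-conditioned medium from mice of 8 to 10 weeks on the C57BL/6 background, whereas one label names the macrophage line RAW264.7. In the IKKβ experiment IKKβ-deficient cells came from *Ikkβ* F/F:*Mx1*-Cre mice and wt cells from *Ikkβ* F/F mice without Cre, so both carried the floxed allele of the kinase that releases NF-κB. *Mx1*-Cre is driven by an interferon-responsive promoter that is active in many tissues, and the sources used here do not give how it was induced. In the p38 experiment C57BL/6 cells were treated for 2 h with 10 µM SB202190, an inhibitor of the p38 kinases. The controls, which the labels call wild type, received the solvent DMSO by the description of the experiment. Each condition was measured after 4 h of LPS, a bacterial lipid sensed by TLR4, and at 0 h, which gave 8 groups of 3 arrays. Whether the 3 came from separate mice or cultures is not stated, so a p-value here speaks only of the spread among these arrays, part or all of which may be technical.

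A cell that leaves G1 loads the MCM2-7 ring onto origins with ORC, CDC6 and CDT1, then turns it into the active helicase with CDC45 and GINS. PCNA, a ring around DNA that the RFC complex loads, holds the polymerases in place, and ribonucleotide reductase and thymidylate synthase supply nucleotides. Many of these genes are transcribed together at the G1/S boundary by E2F factors, which the retinoblastoma proteins hold in check. Macrophages grown with colony-stimulating factor 1 divide, and LPS is known to stop that division.

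Promoters of 6 members are printed because E2F letters are the sequence feature best known to join these genes. In RefSeq (GRCm38.p6), 38 of the 44 members had a window of 300 bases, from 250 before to 50 after an annotated start. *Mcm4*, *Rfc2*, *Prim2*, *Pole*, *Gins1* and *Gins2* were not in that table. The E2F words TTTGGCGC, TTTCCCGC, TTTCGCGC and TTTGCCGC were searched on both strands, where matches on opposite strands may overlap. A match was found for 14 of the 38 members (36.8%), against 704 of all 27025 genes with a window (2.6%). Of the 32 tested members with a window 10 held a match (31.2%), against 336 of the 7486 genes tested in the p38 experiment that had a window (4.49%). The letters CCAAT, on either strand, were found for 24 of the 38 members (63.2%), against 41.1% of all genes. A match is a string of letters and says nothing of binding. The windows are written 5′ to 3′ on the gene's strand, and capitals mark the E2F words.

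*Mcm5* (chr8:75109259-75109558, plus strand), *Mcm6* (chr1:128359656-128359955, minus strand), *Cdt1* (chr8:122567765-122568064, plus strand) and *Uhrf1* (chr17:56304063-56304362, plus strand) each held a match. *Chaf1b* (chr16:93883651-93883950, plus strand) and *Tyms* (chr5:30073576-30073875, minus strand) held none.
Mcm5: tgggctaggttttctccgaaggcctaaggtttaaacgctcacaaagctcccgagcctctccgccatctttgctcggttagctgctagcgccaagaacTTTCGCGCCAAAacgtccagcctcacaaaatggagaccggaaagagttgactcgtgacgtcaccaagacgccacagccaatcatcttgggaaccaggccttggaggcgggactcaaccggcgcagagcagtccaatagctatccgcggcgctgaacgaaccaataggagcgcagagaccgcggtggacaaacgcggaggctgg
Mcm6: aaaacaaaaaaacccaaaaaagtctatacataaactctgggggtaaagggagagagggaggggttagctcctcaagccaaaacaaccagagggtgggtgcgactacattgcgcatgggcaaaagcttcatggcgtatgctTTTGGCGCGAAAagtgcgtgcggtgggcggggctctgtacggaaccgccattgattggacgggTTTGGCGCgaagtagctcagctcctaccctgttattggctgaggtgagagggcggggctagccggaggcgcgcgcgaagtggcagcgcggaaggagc
Cdt1: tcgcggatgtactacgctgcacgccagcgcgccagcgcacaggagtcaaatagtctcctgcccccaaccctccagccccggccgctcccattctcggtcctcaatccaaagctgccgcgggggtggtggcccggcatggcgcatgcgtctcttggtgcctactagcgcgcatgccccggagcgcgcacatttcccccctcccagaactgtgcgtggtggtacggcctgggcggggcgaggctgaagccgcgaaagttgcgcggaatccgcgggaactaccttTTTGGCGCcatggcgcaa
Uhrf1: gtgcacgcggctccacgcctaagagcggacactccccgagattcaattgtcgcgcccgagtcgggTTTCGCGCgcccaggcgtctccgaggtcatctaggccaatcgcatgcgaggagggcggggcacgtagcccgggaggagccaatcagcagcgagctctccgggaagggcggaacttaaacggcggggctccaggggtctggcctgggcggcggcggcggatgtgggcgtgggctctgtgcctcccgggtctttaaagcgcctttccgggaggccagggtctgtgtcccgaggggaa
Chaf1b: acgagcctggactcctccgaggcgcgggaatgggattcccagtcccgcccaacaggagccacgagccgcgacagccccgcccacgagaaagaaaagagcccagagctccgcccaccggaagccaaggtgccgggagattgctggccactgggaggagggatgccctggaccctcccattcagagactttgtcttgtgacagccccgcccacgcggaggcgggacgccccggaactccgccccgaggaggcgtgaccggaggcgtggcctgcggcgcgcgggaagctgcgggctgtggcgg
Tyms: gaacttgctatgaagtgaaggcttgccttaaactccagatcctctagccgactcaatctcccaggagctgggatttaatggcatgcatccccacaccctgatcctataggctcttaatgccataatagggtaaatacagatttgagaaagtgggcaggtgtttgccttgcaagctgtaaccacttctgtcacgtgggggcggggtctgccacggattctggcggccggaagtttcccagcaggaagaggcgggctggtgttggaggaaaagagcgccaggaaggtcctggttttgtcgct

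In *Mcm5* a pair of matches overlapped, 153 and 149 bases before the start. *Mcm6* had an overlapping pair at 110 and 106 bases before the start and another match at 47. The *Cdt1* match lay 32 bases after the start, and that of *Uhrf1* 185 bases before it. Each of the 10 tested members with a match was lower after LPS in all 4 conditions. Of the 22 tested members with a window but no match, 21 were lower in IKKβ-deficient cells, 20 in wt cells, 18 with SB202190 and 21 in control cells. The median log2 difference of the members with a match was -0.69 in IKKβ-deficient cells, -0.57 in wt cells, -0.96 with SB202190 and -0.96 in control cells. Without a match it was -0.48, -0.48, -0.51 and -0.71 in the same order.

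Several arrays stood apart before any replication gene was examined. *Il1b*, which LPS induces, read 128, 1762 and 6617 at 0 h in IKKβ-deficient cells and 131, 10304 and 15929 at 0 h in wt cells. In the p38 experiment it read 625, 719 and 653 at 0 h with SB202190 and 123, 20561 and 3997 at 0 h in control cells, so arrays labelled 0 h differ widely in an LPS gene. The deleted gene *Ikbkb* read 193, 225 and 232 at 4 h and 196, 193 and 184 at 0 h in IKKβ-deficient cells, against 791, 601 and 665 at 4 h and 323, 415 and 471 at 0 h in wt cells. All 8 macrophage markers on the array passed the detection filter in both experiments, and none of the 8 T and NK cell or 6 mast cell and basophil markers did. Of 7 myeloid progenitor markers 3 passed in the IKKβ and 2 in the p38 experiment, and *Flt3*, *Mpo* and *Ms4a3* passed in neither. Of 5 B cell markers 2 passed in the IKKβ and 1 in the p38 experiment, and of 7 dendritic cell markers 3 and 2. Of 4 erythroid markers 1 passed in each, and neutrophil and stromal markers are given below.

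In the p38 experiment the deposited columns disagree about which array is which. The detection p-values come with the intensity columns, so the detection filter there rests on those columns and not on the normalized ones. Of the 12 normalized columns used here, 8 carried the rank order of a deposited intensity column, 6 of them under the same condition and 1 also under the same number. The 4 that matched none were those of SB202190 replicates 1 and 3 at both times, with a highest rank correlation of 0.934 to 0.9375, so of the SB202190 columns only those of replicate 2 were traced. The columns labelled SB202190 0 h replicate 2 and control 4 h replicate 3 match intensities labelled control 4 h and SB202190 0 h. The first read 719 for *Il1b*, beside 625 and 653 on the other SB202190 arrays at 0 h. The second read 51928, beside 42654.5 and 34508 on the other control arrays at 4 h. By *Il1b* both lay with the group of their normalized label, and the labels of the intensities would place the array with 719 in control cells at 4 h. The 4 columns of SB202190 replicate 2 and control replicate 3 traced to 1 BeadChip. The SB202190 arrays were also closer to each other than those of any other group, with a median log2 SD over genes of 0.082 at 4 h and 0.11 at 0 h, against 0.28 and 0.31 in control cells. Counts in this experiment are given below also without the 2 arrays whose labels conflict (the arrays in doubt), and without the 4 untraced arrays.

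**Figure D1:**
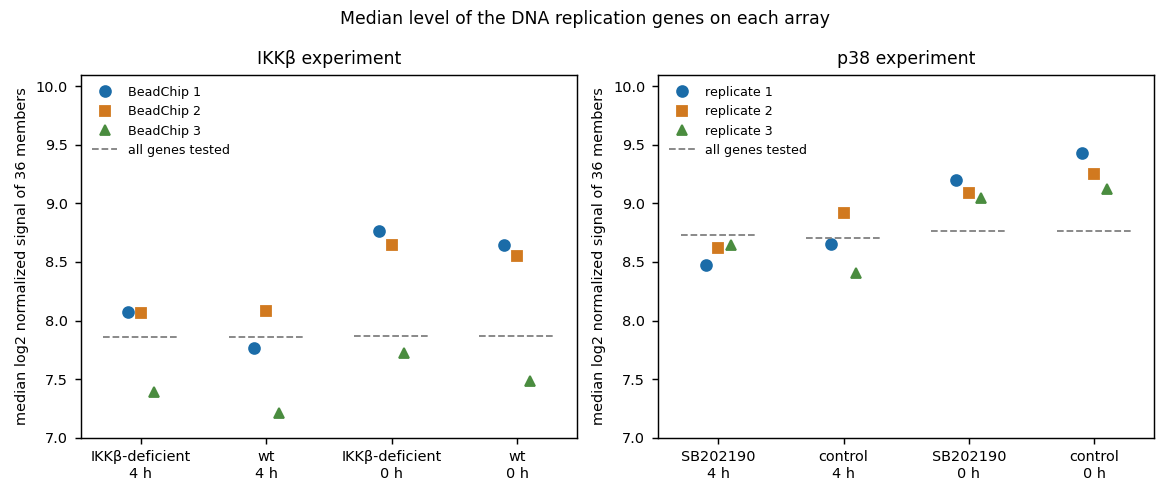
Each point is the median log2 normalized signal of the 36 tested DNA replication genes on 1 array, by group and by BeadChip or replicate number, and the dashed line is the median over all genes tested. On BeadChip 3 of the IKKβ experiment the members were low in every group, and each point at 4 h lies below the point of the same number at 0 h.

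In the IKKβ experiment the DNA replication genes lay lower after 4 h of LPS, both with and without IKKβ. The median log2 difference between 4 h and 0 h over the 36 members was -0.59 in IKKβ-deficient cells and -0.51 in wt cells, against -0.021 and -0.031 over all genes tested. In IKKβ-deficient cells 35 of 36 members were below 0, against 53.5% of all genes, and in wt cells 34 of 36, against 55.1%. On all 3 BeadChips 24 members were lower in IKKβ-deficient and 27 in wt cells, against 2201 and 2241 of all 8569 genes. In bulk RNA, fewer cells in S phase and less RNA of these genes per cell cannot be told apart. By role, the median was -0.76 in IKKβ-deficient and -0.58 in wt cells for the helicase genes, -0.70 and -0.69 for nucleotide supply, -0.85 and -0.85 for chromatin assembly, and -0.21 and -0.22 for the polymerases and primase.

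The size of the difference varied between BeadChips. The members' median was -0.79, -0.58 and -0.21 on BeadChips 1, 2 and 3 in IKKβ-deficient cells, and -0.99, -0.44 and -0.13 in wt cells, so it was smallest on the BeadChip where *Il1b* was highest at 0 h. When arrays were left out it ran from -0.94 to -0.41 in IKKβ-deficient and from -0.81 to -0.30 in wt cells. The level there was low already at 0 h, with a median log2 signal of 7.72 in IKKβ-deficient and 7.48 in wt cells, against 8.55 to 8.77 on the other BeadChips. Of 8 neutrophil markers 6 passed the filter (*Cxcr2* and *Mmp8* did not). The summed signal of all 8 was 3173 to 4645 at 4 h and 1028 to 1858 at 0 h in IKKβ-deficient cells. In wt cells it was 2660.5 to 4249.8 at 4 h and 1092 to 4053 at 0 h. The median over the markers was 102 at 4 h and 104 at 0 h in IKKβ-deficient cells. In wt cells the median was 110 and 112, so in neither genotype did it rise with the sum. The part of the 0 h arrays and of other cells in the members' differences was not tested.

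By limma without the block, 0 members passed an adjusted p of 0.05 in either genotype, where 0% of all genes were called lower in each, 0% higher in IKKβ-deficient cells and 0.0467% higher in wt cells. At an unadjusted p under 0.05 there were 2 members in IKKβ-deficient and 4 in wt cells, against 571 and 628 of all 8569 genes. With the BeadChip as a block 5 members were lower in IKKβ-deficient cells, where 1.83% of all genes were, namely *Mcm6*, *Pold1*, *Pold2*, *Fen1* and *Chaf1b*. In wt cells 5 were lower, where 3.69% of genes were, namely *Mcm4*, *Mcm6*, *Pcna*, *Pold1* and *Chaf1b*. The methods' t-test gave 3 members in IKKβ-deficient and 1 in wt cells at its unadjusted threshold, and 0 in each after adjustment. The share of all genes passing that t-test is not given here, so these counts cannot be set against it. All 3 arrays at 4 h were below all 3 at 0 h for 5 members in IKKβ-deficient cells (4.91% of all genes) and for 3 in wt cells (6.08%). Log2 differences below are given ± SE of the fit.

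*Mcm6*, a subunit of the MCM2-7 ring that unwinds DNA at the fork, had normalized signals of 964, 1516 and 1144 at 4 h and 1833, 2265 and 1913 at 0 h in IKKβ-deficient cells. In wt cells *Mcm6* read 545, 1348 and 933 at 4 h and 1337, 2053 and 1379.6 at 0 h. The differences on BeadChips 1, 2 and 3 were -0.93, -0.58 and -0.74 in IKKβ-deficient cells, where the times did not overlap, and -1.29, -0.61 and -0.56 in wt cells, where they did. With the block the log2 difference was -0.75 ± 0.17 in IKKβ-deficient cells (adjusted p = 0.0482) and -0.82 ± 0.17 in wt cells (adjusted p = 0.0285). *Mcm4*, another subunit, read 1149.7, 1176 and 598 at 4 h and 3966, 2386 and 778 at 0 h in IKKβ-deficient cells. In wt cells *Mcm4* read 874, 1022 and 526 at 4 h and 2977, 2859 and 704 at 0 h. The array of BeadChip 3 was the lowest of each group, and the times overlapped only through it. The blocked log2 difference of *Mcm4* was -1.06 ± 0.30 in IKKβ-deficient (adjusted p = 0.0768) and -1.22 ± 0.30 in wt cells (adjusted p = 0.0452).

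*Mcm2* read 222, 165 and 95.6 at 4 h and 571, 365 and 104 at 0 h in IKKβ-deficient cells. In wt cells *Mcm2* read 151, 181 and 91.4 at 4 h and 431, 285 and 103 at 0 h. On BeadChip 3 both times were low, and the times overlapped in each genotype. Its log2 difference was -0.88 in IKKβ-deficient and -0.78 in wt cells and did not pass. *Mcm5* read 828, 1108 and 456 at 4 h and 2653, 2205 and 587 at 0 h in IKKβ-deficient cells. In wt cells *Mcm5* read 934, 1267 and 326 at 4 h and 2315, 2127 and 329.6 at 0 h. It too was low on BeadChip 3, and its difference was -1.01 in IKKβ-deficient and -0.69 in wt cells. *Mcm3* was dimmer, at 87.9, 134 and 91.4 at 4 h and 256, 207 and 100.04 at 0 h in IKKβ-deficient cells. In wt cells *Mcm3* read 127, 117 and 95.04 at 4 h and 241, 163 and 97.1 at 0 h. Its differences of -0.77 and -0.48 came mostly from BeadChips 1 and 2. *Mcm7* read 81.5, 99.2 and 80.8 at 4 h and 131, 119.87 and 86.5 at 0 h in IKKβ-deficient cells. In wt cells *Mcm7* read 99.5, 104 and 82.6 at 4 h and 118, 129 and 82.4 at 0 h. It was not well above background on any array at 4 h. By group means its level at 0 h can only be called at least 1.09-fold higher in IKKβ-deficient and at least 1.05-fold higher in wt cells. On BeadChip 3 the wt value of *Mcm7* was not lower at 4 h. *Cdc45* and *Gins3*, partners that activate the ring, differed by -0.37 and -0.26 in IKKβ-deficient and by -0.29 and -0.26 in wt cells, without passing.

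Of the genes that license origins, *Cdt1*, which brings the ring to ORC, read 715, 705 and 829.7 at 4 h and 1342, 1016 and 1137 at 0 h in IKKβ-deficient cells. In wt cells *Cdt1* read 470.5, 454 and 642 at 4 h and 1243, 639 and 691 at 0 h. In IKKβ-deficient cells all arrays at 4 h were below all arrays at 0 h, and in wt cells the times overlapped. The log2 difference was -0.63 ± 0.25 in IKKβ-deficient cells, with an adjusted p of 0.684 without and 0.122 with the block. In wt cells it was -0.67 ± 0.25, with an adjusted p of 0.563 without and 0.0977 with the block. *Cdc6*, an ATPase of the loading step, read 113, 97.8 and 100.06 at 4 h and 191, 176 and 95.3 at 0 h in IKKβ-deficient cells. In wt cells *Cdc6* read 107, 114 and 88.3 at 4 h and 188, 129 and 103 at 0 h. In IKKβ-deficient cells it was lower at 4 h on BeadChips 1 and 2 but not on 3, and the differences of -0.52 there and -0.40 in wt cells did not pass. *Orc6*, a subunit of ORC, differed by -0.57 in IKKβ-deficient and -0.55 in wt cells, and *Mcm10*, which helps to start the fork, by -0.39 and -0.40.

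The clamp gene *Pcna* read 280.4, 297 and 357 at 4 h and 323, 355 and 514 at 0 h in IKKβ-deficient cells. In wt cells *Pcna* read 196, 195 and 282 at 4 h and 312, 417 and 433 at 0 h. In wt cells every array at 4 h was below every array at 0 h, and in IKKβ-deficient cells the times overlapped. Unlike most members it was highest, not lowest, on BeadChip 3. *Pcna* had the smallest p of the members in wt cells, with a log2 difference of -0.80 ± 0.12 and an adjusted p of 0.0107 with the block (0.333 without it). In IKKβ-deficient cells it was -0.33 ± 0.12 (adjusted p = 0.133 with the block). The clamp loader genes *Rfc1*, *Rfc2*, *Rfc4* and *Rfc5* differed by -0.67, -0.72, -0.29 and -0.37 in IKKβ-deficient cells and by -0.77, -0.64, -0.42 and -0.21 in wt cells. None of them passed, although *Rfc2*, *Rfc4* and *Rfc5* did not overlap between times in IKKβ-deficient cells, nor *Rfc1* in wt cells.

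*Pold1*, the catalytic subunit of polymerase δ, read 276, 271 and 149 at 4 h and 655, 502 and 239 at 0 h in IKKβ-deficient cells. In wt cells *Pold1* read 193, 249 and 123 at 4 h and 577, 339 and 178 at 0 h. The value at 4 h was below that at 0 h on each BeadChip in both genotypes, though the times overlapped across BeadChips. With the block the log2 difference was -0.94 ± 0.20 in IKKβ-deficient (adjusted p = 0.0424) and -0.85 ± 0.20 in wt cells (adjusted p = 0.0439). *Pold2*, its accessory subunit, read 263, 185 and 118 at 4 h and 367, 276 and 147 at 0 h in IKKβ-deficient cells. In wt cells *Pold2* read 321, 189 and 125 at 4 h and 350.3, 254 and 129.97 at 0 h. It passed with the block in IKKβ-deficient cells (-0.46 ± 0.11, adjusted p = 0.0495) and not in wt cells (-0.20 ± 0.11, adjusted p = 0.264). *Pole*, of the leading-strand polymerase, and *Prim2* and *Pola2*, of the primase complex, differed by -0.21, -0.14 and -0.19 in IKKβ-deficient and by -0.29, -0.22 and 0.018 in wt cells. Of the subunits of RPA, which coats single-stranded DNA, *Rpa1* differed most, by -0.95 in IKKβ-deficient and -0.93 in wt cells. Its adjusted p was 0.0916 and 0.0861 with the block.

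*Fen1*, the nuclease that trims Okazaki fragment flaps, read 837, 730.1 and 385 at 4 h and 2769, 1609 and 534 at 0 h in IKKβ-deficient cells. In wt cells *Fen1* read 746, 786 and 339 at 4 h and 2183, 1461 and 455 at 0 h. It was lower at 4 h on each BeadChip. With the block its log2 difference was -1.11 ± 0.25 in IKKβ-deficient (adjusted p = 0.0446) and -0.95 ± 0.25 in wt cells (adjusted p = 0.054). *Lig1*, the ligase that seals the nicks, read 324, 439 and 254 at 4 h and 620.1, 639.9 and 329 at 0 h in IKKβ-deficient cells. In wt cells *Lig1* read 231, 479 and 202 at 4 h and 484, 544 and 219 at 0 h. It was also lower at 4 h on each BeadChip, and its differences of -0.62 in IKKβ-deficient and -0.46 in wt cells did not pass.

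Of the nucleotide supply genes, *Rrm1*, the large subunit of ribonucleotide reductase, read 652, 505 and 198 at 4 h and 886, 1114 and 283 at 0 h in IKKβ-deficient cells. In wt cells *Rrm1* read 341, 607 and 183 at 4 h and 702, 1025 and 244 at 0 h. It was lower at 4 h on each BeadChip, and its fitted differences of -0.70 in IKKβ-deficient and -0.74 in wt cells did not pass. *Rrm2*, the small subunit, read 152, 83.03 and 75.9 at 4 h and 237, 188 and 94.8 at 0 h in IKKβ-deficient cells. In wt cells *Rrm2* read 92.4, 89.1 and 75.6 at 4 h and 227, 175 and 89.7 at 0 h. No wt array at 4 h was well above background, so by this probe the wt group mean was at least 1.49-fold higher at 0 h. In IKKβ-deficient cells the log2 difference was -0.71. Another *Rrm2* probe of similar brightness gave smaller log2 differences, -0.51 in wt and -0.27 in IKKβ-deficient cells. *Tyms*, thymidylate synthase, read 463, 772 and 333 at 4 h and 690.2, 1356 and 299 at 0 h in IKKβ-deficient cells. In wt cells *Tyms* read 624, 1149 and 328 at 4 h and 573, 1284 and 269.6 at 0 h. It varied more between BeadChips than between times, and with 0.082 in wt cells it was, beside *Pola2*, 1 of 2 members above 0 there (in IKKβ-deficient cells -0.41). *Tk1*, thymidine kinase, differed by -0.99 in IKKβ-deficient and -0.89 in wt cells, and *Dut*, which removes dUTP, by 0.017 and -0.045. A dimmer *Tk1* probe differed by -0.33 in IKKβ-deficient and -0.37 in wt cells. *Ung*, a uracil glycosylase, read 95.5, 96.6 and 96.9 at 4 h and 331, 132 and 89.3 at 0 h in IKKβ-deficient cells. In wt cells *Ung* read 86.1, 103 and 79.03 at 4 h and 253, 111 and 95.1 at 0 h. It was well above background on no array at 4 h. By group means its level at 0 h was at least 1.54-fold higher in IKKβ-deficient and at least 1.35-fold higher in wt cells, mostly through BeadChip 1. On BeadChip 3 it was not lower at 4 h in IKKβ-deficient cells.

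*Uhrf1*, which helps to carry DNA methylation to the new strand, read 454, 473 and 236 at 4 h and 1668, 1306 and 322 at 0 h in IKKβ-deficient cells. In wt cells *Uhrf1* read 352, 344 and 193 at 4 h and 1387, 1196 and 219.8 at 0 h. On BeadChip 3 its level at 0 h was below most values at 4 h. It had the lowest log2 difference of the members in both genotypes, -1.26 ± 0.34 in IKKβ-deficient (adjusted p = 0.0742 with the block) and -1.32 ± 0.34 in wt cells (adjusted p = 0.055). *Chaf1b*, a subunit of the histone chaperone CAF-1, read 223, 288 and 129.85 at 4 h and 386, 677 and 186 at 0 h in IKKβ-deficient cells. In wt cells *Chaf1b* read 152, 292 and 117 at 4 h and 381, 483 and 164 at 0 h. It was lower at 4 h on each BeadChip. With the block it passed in IKKβ-deficient cells (-0.85 ± 0.17, adjusted p = 0.0357) and in wt cells (-0.85 ± 0.17, adjusted p = 0.0275). Its partner *Chaf1a* differed by -0.50 in IKKβ-deficient and -0.35 in wt cells without passing.

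**Figure D2:**
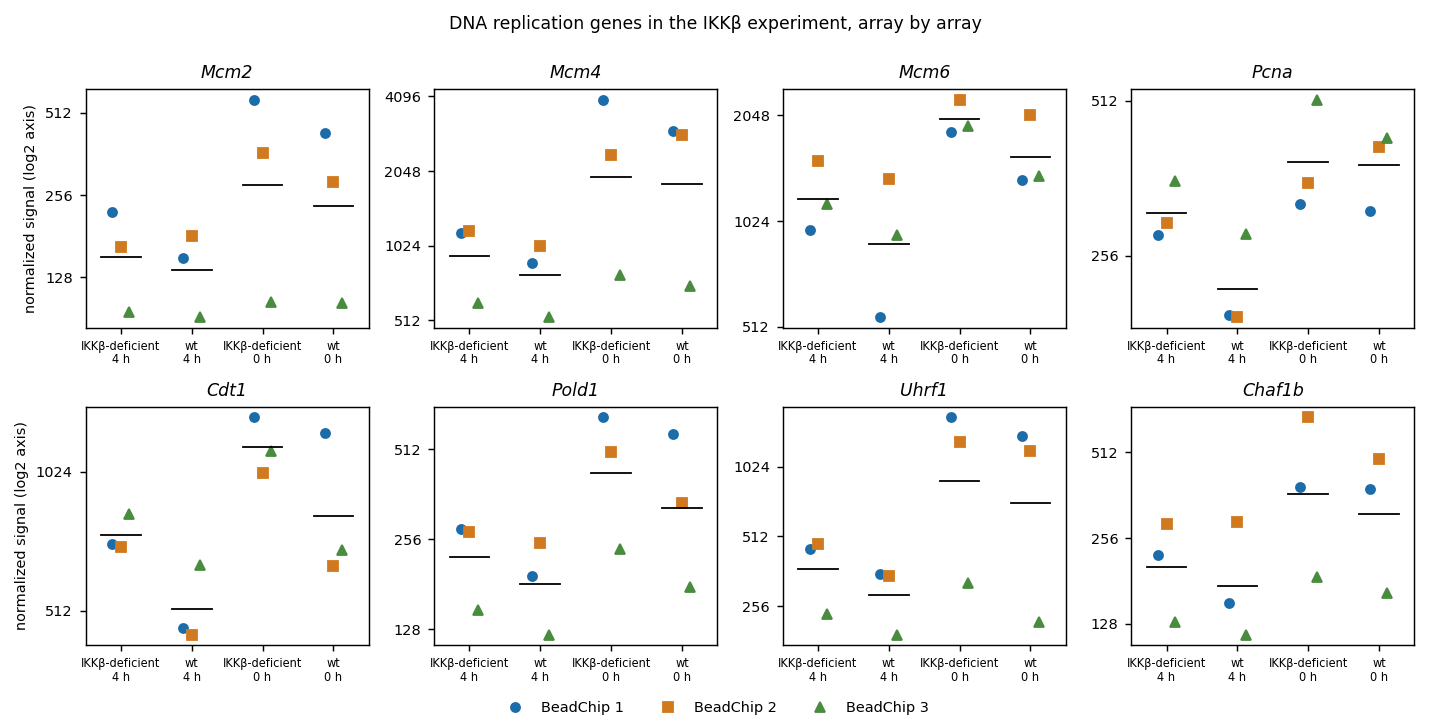
Normalized signals of 8 DNA replication genes on the 12 arrays of the IKKβ experiment (log2 axis), by group, with the BeadChip as the symbol and the mean of the log2 signals as a line. For *Pcna* the 3 wt arrays at 4 h (195 to 282) lie below the 3 at 0 h (312 to 433), and for *Mcm2*, *Mcm4*, *Uhrf1* and *Pold1* the array of BeadChip 3 is the lowest of each group.

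The comparison of IKKβ-deficient with wt cells at each time asks whether the kinase sets the level of these genes. At 0 h the members' median log2 difference was 0.15, with 4 of 36 below 0, against 46.1% of all genes, and at 4 h 0.12, with 8 below 0, against 43.9%. On BeadChips 1, 2 and 3 the members' median was 0.16, 0.12 and 0.14 at 0 h and 0.33, -0.10 and 0.10 at 4 h. At 0 h 18 members were higher on all 3 BeadChips and 0 lower, against 1592 and 1211 of all 8569 genes. Both medians changed sign when some single arrays were left out, which also leaves the BeadChips unequally represented in the groups. At 0 h the median was -0.17 without wt replicate 3 and -0.081 without IKKβ-deficient replicate 1 (range when arrays were left out, -0.17 to 0.50), and at 4 h it was -0.072 without wt replicate 3 and -0.0082 without IKKβ-deficient replicate 1 (-0.072 to 0.27). The summed signal of 7 fibroblast and stromal markers, 4 of which passed the filter (*Col3a1*, *Lum* and *Pdgfra* did not), was 655 to 919 in IKKβ-deficient and 574 to 619 in wt cells at 0 h, without overlap, and 705 to 1044 against 711 to 738 at 4 h, and its part was not tested. By limma 0 members passed at 0 h, where 0% of all genes were called higher or lower. At 4 h 0 passed as well, where 0% of genes were called higher and 0.0117% lower. At an unadjusted p under 0.05 there were 0 members at either time, against 52 of all 8569 genes at 0 h and 85 at 4 h. With the block 0 passed at either time. At a blocked unadjusted p under 0.05 there was 1 member at 0 h (*Cdt1*), against 362 of all genes. At 4 h there were 3 (*Pcna*, *Cdt1* and *Mcm6*), against 468. The methods' t-test gave 0 members at 0 h and 2 at 4 h at its unadjusted threshold, and 0 at each after adjustment, again without a share of all genes to set them against. At 4 h every IKKβ-deficient array was above every wt array for 1 member, *Cdt1* (2.63% of all genes), and below for 1, *Rpa2* (1.67%). Another *Rpa2* probe had a log2 difference of -0.0032 at 4 h.

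*Cdt1* ranged from 705 to 829.7 at 4 h in IKKβ-deficient cells and from 454 to 642 in wt cells. Its log2 difference was 0.54 ± 0.25 at 4 h (95% interval -0.017 to 1.09) and 0.50 ± 0.25 at 0 h (-0.055 to 1.05), and with the block the intervals were 0.05 to 1.02 at 4 h and 0.012 to 0.98 at 0 h. *Pcna* at 4 h was higher in IKKβ-deficient cells by 0.52, 0.61 and 0.34 on BeadChips 1, 2 and 3, with a single wt array inside the IKKβ-deficient range. The fitted value was 0.49 ± 0.22 (-0.0081 to 0.99), and with the block 0.49 ± 0.12 (0.23 to 0.75). *Mcm6* differed by 0.43 at 4 h (blocked interval 0.042 to 0.81) and 0.36 at 0 h. None of these passed adjustment over all genes by limma, the lowest adjusted p with the block being 0.747, for *Pcna* at 4 h.

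Whether LPS acted differently in the 2 genotypes was tested as the difference between the LPS changes, IKKβ-deficient minus wt. By limma 0 members passed, where 0% of all genes were called higher or lower. At an unadjusted p under 0.05 there were 0 members, against 29 of all 8569 genes. The median was -0.061, with 22 of 36 members below 0, against 49.2% of all genes. With each array scaled to its median it was 0.09, where that of all genes was 0.12. By BeadChip the median was 0.14, -0.21 and -0.058, so it has no stable direction. Leaving out arrays gave medians of -0.43 (without IKKβ-deficient replicate 3 at 0 h) to 0.24 (without wt replicate 3 at 0 h). *Pcna* had the smallest p, at 0.47 ± 0.32 (95% interval -0.24 to 1.17). With the block 0 members passed, and *Pcna* was the 1 at an unadjusted p under 0.05, against 240 of all 8569 genes. Its blocked value was 0.47 ± 0.16 (0.10 to 0.84). Next came *Pola2*, without the block, at -0.21 ± 0.31 (-0.91 to 0.49). The intervals are wide beside many of the LPS changes, so the result does not show that both genotypes responded alike.

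**Figure D3:**
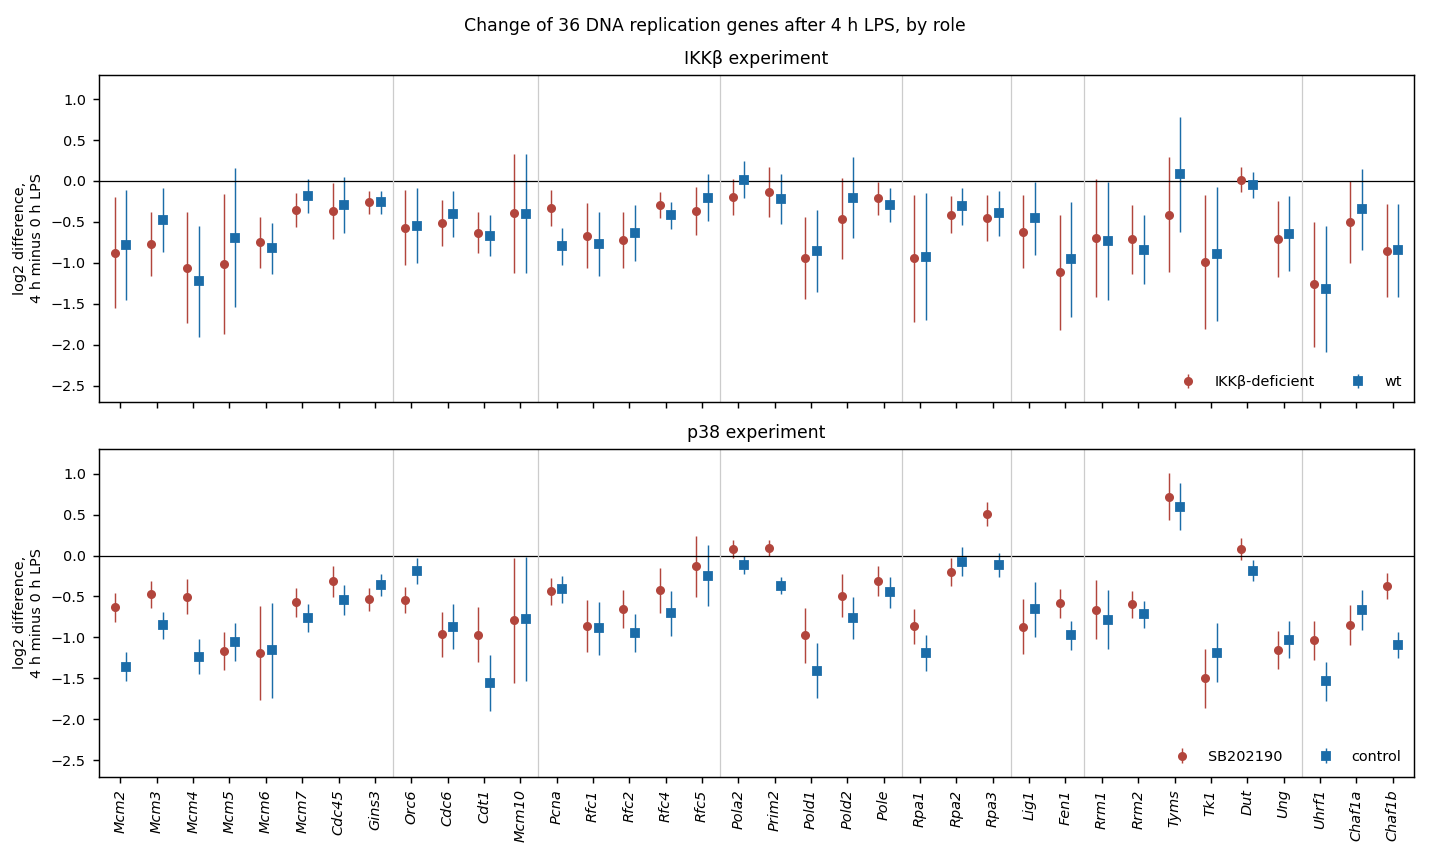
Log2 difference between 4 h and 0 h of LPS for the 36 tested DNA replication genes, grouped by role, with the SE of the limma fit as bars. In the IKKβ experiment (upper panel) the medians are -0.59 in IKKβ-deficient and -0.51 in wt cells; in the p38 experiment (lower panel) they are -0.58 with SB202190 and -0.77 in control cells, and *Tyms* lies above 0 in both conditions.

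In the p38 experiment, which has its own control cells, the DNA replication genes again lay lower after 4 h of LPS. The members' median log2 difference was -0.58 with SB202190 and -0.77 in control cells, against -0.034 and -0.042 over all genes tested. With SB202190 31 of 36 members were below 0, against 54.8% of all genes, and in control cells 35, against 55.1%. By limma 9 members were lower with SB202190, where 4.81% of all genes were called lower and 5.29% higher. In control cells 14 were lower, where 3.63% of genes were called lower and 2.86% higher. No member was called higher in either condition. *Mcm2*, *Mcm5*, *Uhrf1*, *Rpa1*, *Ung* and *Rrm2* were lower in both. With the replicate number as a block the counts were 6 with SB202190 (5.29% of all genes lower) and 13 in control cells (3.67%).

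Non-overlap of the times was common here. All SB202190 arrays at 4 h were below all at 0 h for 30 members, and above for 3, but this also held for 32.6% and 25.2% of all genes. In control cells all were below for 17 members, against 9.27% of all genes. By role the median was -0.55 with SB202190 and -0.95 in control cells for the helicase genes, -0.88 and -0.82 for origin licensing, -0.63 and -0.75 for nucleotide supply, and -0.31 and -0.45 for the polymerases and primase. In all, 34 of the 36 members were lower at 4 h both in control cells of this experiment and in wt cells of the other, which were normalized apart and not tested together.

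The counts of the p38 experiment rest on a spread that both conditions share. When only the 6 SB202190 arrays entered the fit 31 members passed, 29 of them lower, and when only the 6 control arrays entered 0 passed. The shares of all genes passing in these fits are not given here, so the 31 cannot be set against them. Leaving out the arrays numbered 2 gave 25 in control cells, and leaving out those numbered 1 or 3 gave 0. Of single arrays, dropping any of SB202190 gave 0 or 1 with SB202190, and dropping control replicate 2 gave 22 (at 4 h) or 21 (at 0 h) in control cells. Without the 2 arrays in doubt 1 member, *Mcm5*, passed with SB202190 and 0 in control cells, with medians of -0.58 in each. Without the 4 untraced arrays, which leaves 1 SB202190 array at each time that is assumed to vary like the control arrays, 0 passed in either, with medians of -0.59 with SB202190 and -0.77 in control cells. With the labels of the intensities, which place the array with 719 of *Il1b* in control cells at 4 h, 0 passed in either. The medians were then -0.13 with SB202190 and -0.41 in control cells. The BeadChip to which 4 columns traced holds both arrays in doubt, so its values rest on the normalized labels. On it 31 of 36 members were lower at 4 h with SB202190 and 31 in control cells. Their medians were -0.59 and -0.99, against -0.039 and -0.065 over all genes tested.

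*Mcm2* read 262, 295 and 312 at 4 h and 434, 451 and 457 at 0 h with SB202190. In control cells *Mcm2* read 214, 245 and 180.3 at 4 h and 705, 514 and 441 at 0 h. The times did not overlap in either condition. Its log2 difference was -0.63 ± 0.18 with SB202190 (adjusted p = 0.0491) and -1.36 ± 0.18 in control cells (adjusted p = 0.00613), where it had the smallest p of the members. *Mcm5* read 989.8, 1091 and 1009.7 at 4 h and 2043, 2338 and 2562 at 0 h with SB202190. In control cells *Mcm5* read 1323, 2098 and 1024 at 4 h and 3329.8, 3175 and 2406 at 0 h. Again the times did not overlap, and the difference was -1.16 ± 0.23 with SB202190 (adjusted p = 0.0143) and -1.05 ± 0.23 in control cells (adjusted p = 0.0285). *Mcm4* read 1602, 1729 and 1804 at 4 h and 2017, 2568 and 2742 at 0 h with SB202190. In control cells *Mcm4* read 1329, 1850.0 and 1106 at 4 h and 4183, 3095 and 2728 at 0 h. It passed in control cells (-1.23 ± 0.21, adjusted p = 0.0134) and not with SB202190 (-0.50 ± 0.21, adjusted p = 0.169), though neither pair of times overlapped.

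*Mcm3* read 219, 249 and 237 at 4 h and 325, 337 and 317 at 0 h with SB202190. In control cells *Mcm3* read 180.5, 211 and 152 at 4 h and 409, 287 and 290.2 at 0 h. It too was lower at 4 h without overlap and passed in control cells (-0.85 ± 0.17, adjusted p = 0.0185), with -0.48 for SB202190. *Mcm6* read 798, 801 and 717 at 4 h and 1801, 1695 and 1788 at 0 h with SB202190. In control cells *Mcm6* read 1204, 4025 and 648 at 4 h and 3377, 6053 and 1701 at 0 h. Control replicate 2 was the highest array at both times, and neither -1.19 with SB202190 nor -1.16 in control cells passed. *Mcm7* read 111, 101 and 106 at 4 h and 138, 159.7 and 177 at 0 h with SB202190. In control cells *Mcm7* read 106, 150.23 and 124 at 4 h and 202, 261 and 182 at 0 h. It passed in control cells (-0.76 ± 0.17, adjusted p = 0.031), and its difference with SB202190, near background, was -0.57. *Gins3* was lower with SB202190 (-0.54 ± 0.14, adjusted p = 0.0358) and differed by -0.36 in control cells, and *Cdc45* differed by -0.31 and -0.54.

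*Cdt1* read 3087, 2875 and 2674 at 4 h and 5350.4, 5336 and 6176 at 0 h with SB202190. In control cells *Cdt1* read 1062, 1233 and 976 at 4 h and 4910.2, 1569 and 4219 at 0 h. Control replicate 2 at 0 h, the array with 20561 of *Il1b*, was the low one of its group. The log2 difference was -0.96 ± 0.34 with SB202190 (adjusted p = 0.0968) and -1.56 ± 0.34 in control cells (adjusted p = 0.0268), the lowest of the members there. *Cdc6* read 146, 135 and 152 at 4 h and 287, 281 and 277 at 0 h with SB202190. In control cells *Cdc6* read 138, 202 and 122 at 4 h and 315, 169.9 and 385 at 0 h. It was lower with SB202190 (-0.96 ± 0.27, adjusted p = 0.0491). In control cells replicate 2 was higher at 4 h than at 0 h, and the difference was -0.87. *Pcna* read 769, 806 and 902 at 4 h and 1055, 1183 and 1111 at 0 h with SB202190. In control cells *Pcna* read 779, 1181 and 852 at 4 h and 1308, 1323 and 1071 at 0 h. Its differences of -0.44 with SB202190 and -0.41 in control cells were smaller than those of *Mcm2* to *Mcm7* and did not pass. Of the clamp loader, *Rfc2* was lower in control cells (-0.95 ± 0.23, adjusted p = 0.0386) and differed by -0.65 with SB202190.

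*Pold1* was lower in control cells (-1.41 ± 0.34, adjusted p = 0.0371). With SB202190 its difference was -0.98, with an adjusted p of 0.0947 without and 0.0392 with the block. *Rpa1* read 2485, 2546 and 3029 at 4 h and 4690.3, 5179.9 and 4746 at 0 h with SB202190. In control cells *Rpa1* read 2446, 2827 and 1577 at 4 h and 6232, 4215 and 4927 at 0 h. It was lower in both conditions, with differences of -0.86 ± 0.21 with SB202190 (adjusted p = 0.0319) and -1.19 ± 0.21 in control cells (adjusted p = 0.0152). *Fen1* read 1829.9, 2120.0 and 1537 at 4 h and 2727, 2679 and 2755 at 0 h with SB202190. In control cells *Fen1* read 1061, 1321 and 1069 at 4 h and 2672, 1784 and 2387 at 0 h. It passed in control cells (-0.98 ± 0.17, adjusted p = 0.0151), and its difference with SB202190 was -0.58. *Lig1* read 359, 384 and 408 at 4 h and 656, 756 and 692 at 0 h with SB202190. In control cells *Lig1* read 663, 1114 and 398 at 4 h and 1015, 1535 and 744 at 0 h. The SB202190 arrays did not overlap between times, the control arrays did, and neither -0.87 nor -0.66 passed.

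*Rrm1* read 465, 448 and 513 at 4 h and 778, 765 and 709 at 0 h with SB202190. In control cells *Rrm1* read 458, 1057 and 361 at 4 h and 847, 1484 and 709.7 at 0 h. Control replicate 2 was again highest, and -0.66 with SB202190 and -0.78 in control cells did not pass. *Rrm2* read 126, 121 and 126 at 4 h and 205, 166 and 195 at 0 h with SB202190. In control cells *Rrm2* read 99.2, 161 and 129 at 4 h and 215, 213 and 199 at 0 h. It was lower in both conditions, with differences of -0.60 ± 0.17 with SB202190 (adjusted p = 0.0451) and -0.72 ± 0.17 in control cells (adjusted p = 0.0318). So was *Ung*, at -1.15 ± 0.23 with SB202190 (adjusted p = 0.0139) and -1.03 ± 0.23 in control cells (adjusted p = 0.0285). *Tk1* was lower with SB202190 (-1.50 ± 0.36, adjusted p = 0.0274) and differed by -1.19 in control cells. A dimmer *Tk1* probe differed less, by -0.34 with SB202190 and -0.40 in control cells.

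*Tyms* was the 1 member above 0 in both conditions. It read 909.9, 936 and 997 at 4 h and 592, 618 and 519 at 0 h with SB202190. In control cells *Tyms* read 1086, 1445 and 1339 at 4 h and 839.8, 1415 and 510.0 at 0 h. With SB202190 all arrays at 4 h were above those at 0 h, and in control cells the times overlapped. The log2 difference was 0.72 ± 0.29 with SB202190 (adjusted p = 0.144) and 0.60 ± 0.29 in control cells (adjusted p = 0.231), so neither passed. The other 3 *Tyms* probes, all dimmer, differed by 0.038 to 0.35 with SB202190 and by 0.099 to 0.15 in control cells. *Rpa3*, the small RPA subunit, read 879, 908 and 912 at 4 h and 694, 600.1 and 607 at 0 h with SB202190. In control cells *Rpa3* read 501, 722 and 698 at 4 h and 719, 639.5 and 697 at 0 h. It was higher at 4 h with SB202190 without overlap (0.51 ± 0.15, adjusted p = 0.0536), and in control cells its difference was -0.11.

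*Uhrf1* read 642, 625 and 696 at 4 h and 1268, 1265 and 1493 at 0 h with SB202190. In control cells *Uhrf1* read 693, 736 and 533 at 4 h and 2799.8, 1783 and 1323 at 0 h. It was lower at 4 h in both conditions, with differences of -1.03 ± 0.24 with SB202190 (adjusted p = 0.0229) and -1.53 ± 0.24 in control cells (adjusted p = 0.00929). *Chaf1b* read 658, 674 and 708 at 4 h and 879.6, 853 and 909.9 at 0 h with SB202190. In control cells *Chaf1b* read 255, 413 and 318 at 4 h and 634, 735 and 693 at 0 h. Control cells at 4 h stood apart from the other groups. The LPS difference was -0.37 ± 0.16 with SB202190 (adjusted p = 0.172) and -1.09 ± 0.16 in control cells (adjusted p = 0.00864). *Chaf1a* differed by -0.85 with SB202190 and -0.67 in control cells.

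**Figure D4:**
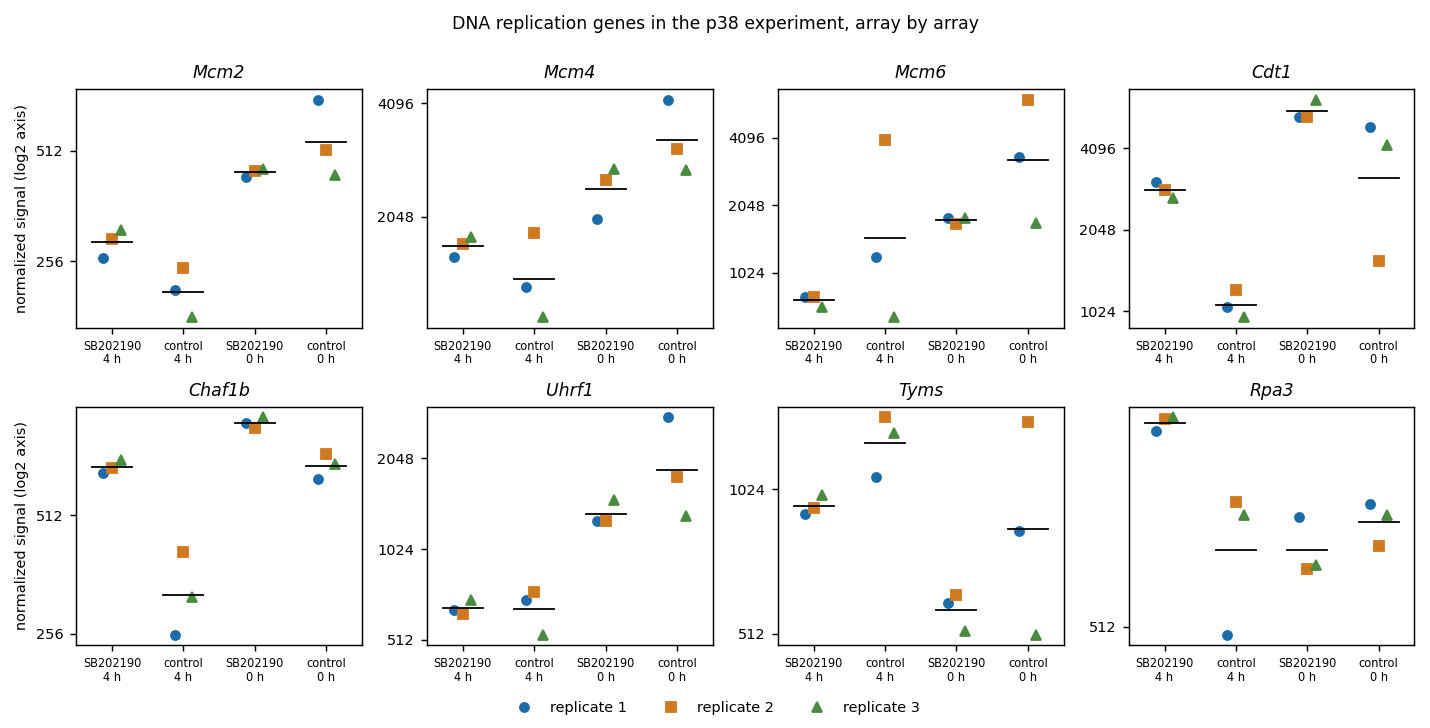
Normalized signals of 8 DNA replication genes on the 12 arrays of the p38 experiment (log2 axis), by group, with the replicate number as the symbol and the mean of the log2 signals as a line. The SB202190 arrays lie close together; at 4 h those of *Chaf1b* (658 to 708) and *Cdt1* (2674 to 3087) lie above all control arrays (255 to 413 and 976 to 1233).

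SB202190 was set against control at each time to ask whether p38 inhibition altered the level of these genes. At 0 h the members' median log2 difference was -0.15, with 23 of 36 below 0, against 48.7% of all genes. By limma 0 members passed, where 0% of all genes were called higher or lower. At an unadjusted p under 0.05 there were 5 of 36 members, against 897 of all 9123 genes. The methods' t-test gave 3, all higher, at its unadjusted threshold and 0 after adjustment, without a share of all genes to set them against. Without the arrays in doubt 0 passed and the median was -0.16, and without the untraced arrays 0 passed and it was -0.19. *Ung* (0.67 ± 0.23), *Orc6* (0.40 ± 0.16) and *Mcm7* (-0.43 ± 0.17) had the smallest p, at an adjusted p of 0.457, 0.492 and 0.492.

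At 4 h the median was 0.027, with 17 of 36 members below 0, against 48.2% of all genes. By limma 1 member, *Chaf1b*, was higher, where 2.23% of all genes were called higher and 1.04% lower. At an unadjusted p under 0.05 there were 11 of 36 members, against 1812 of all 9123 genes. The median has no stable direction, at -0.063 without the arrays in doubt, -0.023 without the untraced arrays, and -0.093 to 0.22 when arrays were left out. For 12 members every SB202190 array was above every control array, which also held for 19.6% of all genes, and for 2 every one was below, as for 14.1%. Of 7 fibroblast and stromal markers 4 passed the filter (*Col3a1*, *Lum* and *Pdgfra* did not). The summed signal of all 7 at 4 h was 999.8 to 1027 with SB202190 and 1194 to 1783 in control cells. Of 8 measured neutrophil markers 4 passed (*Cxcr2*, *Ltf*, *Mmp8* and *Ngp* did not). The summed signal of all 8 with SB202190 was 1339 to 1435 at 4 h and 1598 to 1818 at 0 h. In control cells it was 1669 to 2971 at 4 h and 1231 to 1863 at 0 h. Neither list overlapped between the conditions at 4 h, and their part was not tested.

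*Chaf1b* at 4 h differed by 1.08 ± 0.16 (95% interval 0.72 to 1.43, adjusted p = 0.0106). Between arrays of the same number, which did not pair the conditions, the differences were 1.37, 0.71 and 1.16. On the shared BeadChip, where values rest on the normalized labels, it was 1.09. At 0 h its difference was 0.36 ± 0.16 (adjusted p = 0.501). *Cdt1* differed by more, 1.40 ± 0.34 at 4 h (0.66 to 2.15) and 1.56 on the shared BeadChip, but missed the threshold (adjusted p = 0.0503). When only the groups of that time entered the fit both passed, at an adjusted p of 0.0293 for *Chaf1b* and 0.00929 for *Cdt1*. Without any 1 of the SB202190 arrays at 4 h 0 members passed, and without control replicate 2 at 0 h 6 did. Without the arrays in doubt *Chaf1b* differed by 1.07 ± 0.20 (adjusted p = 0.0453) and *Cdt1* by 1.33 (adjusted p = 0.126). With the SB202190 arrays averaged, without the untraced arrays, or with the labels of the intensities, 0 members passed. *Fen1* (0.66 ± 0.17, adjusted p = 0.0662) and *Prim2* (0.38 ± 0.10, adjusted p = 0.0666) came next. *Mcm10* and *Mcm6* had the lowest values, -1.08 (-2.75 to 0.60) and -0.92 (-2.20 to 0.35). Both come mainly from control replicate 2, which read 2820 for *Mcm10* and 4025 for *Mcm6* at 4 h. Between the arrays numbered 1 and 3 the differences were -0.45 and 0.034 for *Mcm10* and -0.59 and 0.15 for *Mcm6*.

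**Figure D5:**
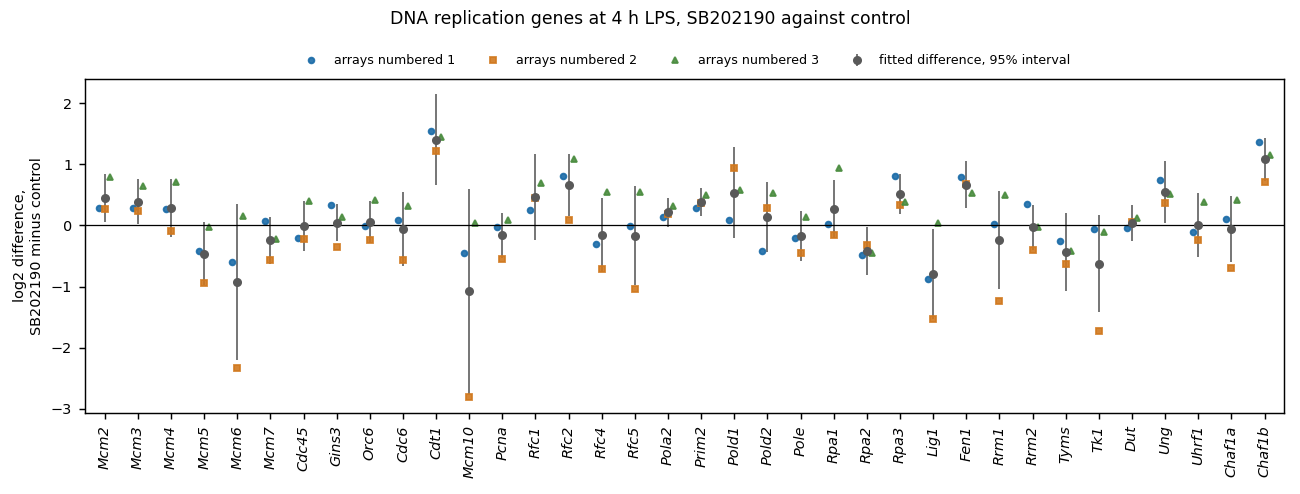
Log2 difference between SB202190 and control cells at 4 h of LPS for the 36 tested DNA replication genes, with the fitted value, its 95% interval and the differences between arrays of the same number. The numbers did not pair the conditions. *Cdt1* and *Chaf1b* lie highest, at 1.40 and 1.08, and for *Mcm10* and *Mcm6* the difference taken with control replicate 2 lies far below the others.

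The difference between the LPS changes, SB202190 minus control, had a median of 0.16, with 12 of 36 members below 0, against 48.2% of all genes. By limma 0 members passed, where 0% of all genes were called higher and 0.0219% lower. At an unadjusted p under 0.05 there were 5 of 36 members, against 510 of all 9123 genes. The smallest p-values were those of *Prim2* (0.46 ± 0.14, adjusted p = 0.635), *Chaf1b* (0.72 ± 0.23, adjusted p = 0.648) and *Rpa3* (0.62 ± 0.21, adjusted p = 0.679). Their 95% intervals were 0.14 to 0.78, 0.22 to 1.22 and 0.16 to 1.09. By number, which did not pair SB202190 with control arrays, the members' median was 0.32, -0.094 and 0.39. The difference taken with control replicate 2 thus did not share the direction. On the shared BeadChip 29 of the 36 members had a less negative or more positive LPS difference with SB202190, a count not made over all genes. That count rests on the normalized labels of both arrays in doubt. Without the arrays in doubt 0 passed and the median was 0.030, and without the untraced arrays 0 passed and it was 0.13. When the control pair of replicate 2 was left out, a choice made after seeing the data, 3 members passed.

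The same contrasts were read in lists outside the members. Of 43 other replication genes, such as further subunits of ORC and the polymerases, 32 were tested in the IKKβ experiment. Their median LPS difference was -0.22 in IKKβ-deficient cells, with 2 lower with the block, and -0.25 in wt cells, with 0. At a blocked p under 0.05 before adjustment there were 14 in each genotype. Of all 8569 genes 2033 had such a p in IKKβ-deficient and 2199 in wt cells. The p38 experiment tested 33, with medians of -0.28 with SB202190 (6 lower, 1 higher) and -0.21 in control cells (2 lower). *Dnmt1*, the methyltransferase that UHRF1 recruits, was lower with SB202190 (-1.40 ± 0.26, adjusted p = 0.0104) and in control cells (-1.89 ± 0.26, adjusted p = 0.00681). Between SB202190 and control at 4 h 1 was higher, the origin-firing kinase gene *Cdc7* (1.31 ± 0.29, adjusted p = 0.0359), and 1 lower, *Dck*, a nucleoside salvage kinase (-1.26 ± 0.24, adjusted p = 0.0239). Without the arrays in doubt *Dnmt1* passed with SB202190 (adjusted p = 0.0482) and not in control cells (adjusted p = 0.0676), and neither *Cdc7* (adjusted p = 0.0794) nor *Dck* (adjusted p = 0.0507) passed. Between the genotypes 0 passed at either time by limma, with or without the block (at an unadjusted p under 0.05, 0 at either time without the block, and 2 at 0 h and 0 at 4 h with it).

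Of 42 mitosis and spindle genes 25 were tested in the IKKβ experiment. Their median was -0.79 in IKKβ-deficient cells, with 7 lower with the block, and -0.75 in wt cells, with 10 lower and 1 higher, the kinetochore gene *Spc24* (0.42, adjusted p = 0.0268). In the p38 experiment 24 were tested, with medians of -0.63 with SB202190 (8 lower, 1 higher) and -0.71 in control cells (10 lower). The kinase genes *Plk1* (-1.12 ± 0.15, adjusted p = 0.00681) and *Pbk* (-1.14 ± 0.14, adjusted p = 0.00479) were lower in control cells. *Mad2l1*, a spindle checkpoint gene, was the higher one with SB202190 (2.79 ± 0.39, adjusted p = 0.00557). Without the arrays in doubt 1 was higher and 3 lower with SB202190 and 0 lower in control cells, so that *Mad2l1* still passed (2.81 ± 0.32, adjusted p = 0.00905), but neither *Plk1* nor *Pbk* did.

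The E2F, RB and G1 regulators had medians near 0. Of 32 listed, 26 were tested in the IKKβ and 27 in the p38 experiment, with medians of -0.18 in IKKβ-deficient cells, -0.070 in wt cells, 0.051 with SB202190 and 0.062 in control cells. With the block 2 were lower in IKKβ-deficient and 5 in wt cells, and without it 2 were higher and 2 lower with SB202190 and 2 lower in control cells. *Ccnd1*, cyclin D1, was lower with the block in IKKβ-deficient (-1.83, adjusted p = 0.0135) and wt cells (-2.08, adjusted p = 0.00667), and without it in control cells (-3.05 ± 0.77, adjusted p = 0.0423). *E2f2*, an activating E2F, was lower in control cells (-2.37 ± 0.52, adjusted p = 0.0279). With SB202190 *E2f5*, a repressive E2F (1.62 ± 0.31, adjusted p = 0.0124), and *Cdkn1a*, the p21 inhibitor of cyclin-dependent kinases (1.59 ± 0.38, adjusted p = 0.0261), were higher. Without the arrays in doubt none of these 4 differences in the p38 experiment passed (adjusted p of 0.19 for *Ccnd1*, 0.174 for *E2f2*, 0.0618 for *E2f5* and 0.104 for *Cdkn1a*), and without the untraced arrays no gene of the 3 lists passed in any comparison there.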

How the data were processed

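The authors hybridised labelled RNA to Illumina MouseRef-8 v2 BeadChips (25697 probes, of which 23978 are paired with 1 gene symbol in GEO's annotation and 1719 with none). They deposited scanner intensities and detection p-values from BeadStudio, and linear intensities that they had normalized with Partek (version not given in the labels), quantile-normalized for each 12-array experiment by itself. The depth of an array has no counterpart of a read count, and 3 arrays a group limit the precision.

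Here the deposited normalized intensities were log2-transformed with no further scaling. A gene was kept if a probe had a detection p-value under 0.05 on at least 3 of the 12 arrays, and its brightest probe by mean log2 signal represented it. Means of the 4 groups of an experiment were fitted with limma 3.58.1 in R 4.3.3 (lmFit, eBayes, two-sided), and p-values were adjusted over all genes tested by the Benjamini-Hochberg method, with a threshold of 0.05. Intervals are 95%. The experiments were normalized apart, so levels were not compared between them.

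In the IKKβ experiment the replicate number marks the BeadChip, and arrays of the same number deviated together (correlation of deviations from the group means of 0.424 to 0.925, 12 of 12 arrays closest to their own number). The number pairs these arrays, and blocked values are given beside the others where they change a count or an interval's reading.

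In the IKKβ experiment a level not well above background on any array of a group was set against the lowest signal among detected probes. This gave "at least" folds between group means, which need not hold on each BeadChip. The methods' t-test was run on linear normalized values. Tests are given for members that passed, up to 10 a comparison by smallest p (all 14 in control cells, past that limit), or else the 3 with the smallest p, and other members by their difference. Members with per-array values were *Mcm2* to *Mcm7*, *Pcna*, *Rrm1*, *Rrm2*, *Tyms*, *Cdc6*, *Cdt1*, *Lig1*, *Fen1* and *Uhrf1*, and others where a test passed. *Rpa3* and *Prim2* were added after their values were seen. In the other lists the 3 genes with the smallest p in a contrast could be named. The members and lists were chosen with earlier results of these data known. The script was tested on simulated data. Promoter windows are from RefSeq and were searched in Python 3.11.15.

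Alternatives were another probe choice, no or a stricter detection filter (p under 0.01 on at least 6 arrays), other scalings, the replicate block, fits of only the groups compared, array weights, averaged SB202190 arrays, the labels of the intensities and leaving out arrays.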

Additional observations from a re-analysis of the deposited data

Results flagged for a closer look

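*Prim2*, the large subunit of the primase, was the 1 DNA replication gene whose LPS difference ran in opposite directions under SB202190 and control on every same-number pair. The numbers did not pair the SB202190 arrays. The log2 difference was 0.093 with SB202190, above 0 for all 3 numbers, and -0.37 in control cells, below 0 for all 3. The SB202190 change exceeded the control change by 0.46, with an adjusted p of 0.635 by limma, so the difference between the conditions did not pass. Another probe of *Prim2* differed by -0.14 with SB202190 and -0.069 in control cells.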

How the results depend on the processing

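In the IKKβ experiment the count of DNA replication genes lower after LPS was 0 in each genotype, and with the replicate block 5 in IKKβ-deficient and 5 in wt cells. The methods' t-test at its unadjusted threshold gave 3 in IKKβ-deficient cells, 1 in wt cells, and 2 between the genotypes at 4 h. Every other alternative gave 0, and leaving out arrays gave 0 to 0 in all 5 comparisons of this experiment. The replicate block called no member between genotypes.

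In the p38 experiment deviations correlated between control arrays of the same number (0.525 to 0.584), which also traced to the same BeadChip. Pairs of the same number that held an SB202190 array did not (-0.064 to 0.0935), although 11 of 12 arrays correlated best with their own number. The numbers thus paired the control arrays and not those of SB202190. With the replicate block the counts were 6 with SB202190, 13 in control cells, 0 and 1 between the conditions at 0 h and 4 h, and 0 for the difference between LPS changes.

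Shares of all genes passing are given above for the main fit and, in the LPS comparisons, for the replicate block, and not for the other alternatives. The counts below therefore show only how the members' calls moved with the fit. For LPS with SB202190 the count was 9. It was 31 with only the groups compared, 31 with the block added, 32 by the methods' t-test (30 after adjustment), 32 with array weights, 27 without the control pair of replicate 2, 1 without the arrays in doubt, 0 without the untraced arrays, 0 with SB202190 arrays averaged, 0 with the labels of the intensities, and 0 to 18 when arrays were left out. For LPS in control cells it was 14, and 29 without the control pair of replicate 2, 3 with array weights, and 0 to 25 when arrays were left out. It was 0 with only the groups compared, with the block added, by the adjusted t-test, with averaged SB202190 arrays, with the labels of the intensities, without the arrays in doubt and without the untraced arrays. Between SB202190 and control at 4 h the count was 1. It was 2 with no or a stricter detection filter, with only the groups compared or with array weights, 12 by the t-test (3 after adjustment), 8 without the control pair, 0 with the block added to the groups compared, with averaging, without the untraced arrays or with the other labels, and 0 to 6 when arrays were left out. At 0 h the t-test gave 3 and leaving out arrays 0 to 0. For the difference between LPS changes the count was 3 without the control pair and 0 to 1 when arrays were left out. In control cells the count was 3 to 9 without any single other control array and 7 without any SB202190 array but replicate 1 at 0 h. The causes were not tested.

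Over the single genes named, 241 values kept their direction and side of the threshold, 13 came to pass, 81 ceased to pass and 0 reversed. Scaling to the array median moved the median of all genes by LPS in wt cells to -0.17, with the members at -0.72. Leaving out the arrays in doubt, the untraced arrays or the control pair, and adding the block with only the groups compared, were choices made after seeing the data. Signals near background limit *Mcm7*, *Rrm2* and *Ung* to bounds on group means in the IKKβ experiment.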
